A study of Homo sapiens with 6 samples.

Results

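The 9 genes described here encode kinases that act on RNA polymerase II during transcription (*CDK7*, *CDK9*, *CDK12* and *CDK13*), the cyclin T partners of CDK9 (*CCNT1* and *CCNT2*), an inhibitor of that pair (*HEXIM1*), and 2 readers of acetylated histones of the BET family (*BRD2* and *BRD3*). They were chosen by gene name from a count table of 62703 genes, and 9 of 9 were among the 17901 genes that were expressed highly enough to be tested. The cells were 22Rv1, a human prostate carcinoma line, grown in medium with serum. Both groups received 25 pmol of an siRNA pool 24 hours after seeding, had their medium replaced 6 hours later and were harvested on day 3: siCtrl received a non-targeting pool (n = 3) and siMED12 a pool against *MED12* (n = 3), a subunit of the Mediator complex that belongs to its kinase module. The knockdown is transient and partial and was made in a single cell line. The study's methods call for biological replicates in its experiments in general. The labels, however, do not say that the replicates of a group were separate cultures, so p-values measure the spread between these 6 libraries. In models that include the replicate number, p-values measure the spread left after differences between replicate numbers are removed.

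Transcription by RNA polymerase II is paced by kinases that phosphorylate the C-terminal domain of its largest subunit. CDK7, the kinase of the general factor TFIIH, acts near initiation, and CDK9 with cyclin T1 or T2 forms P-TEFb, which releases paused polymerase into elongation. HEXIM1 holds P-TEFb inactive within the 7SK small nuclear ribonucleoprotein, while CDK12 and CDK13, which pair with cyclin K, support elongation through long genes. BET proteins bind acetylated histones through paired bromodomains and recruit parts of this machinery to active chromatin.

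Promoter sequence was read from RefSeq windows on GRCh38.p14, in which 9 of 9 genes had an entry, as the 250 bases before the start site. The windows of *HEXIM1* and *CDK12* are shown because they contain no exon of the gene itself and, of the 4 windows for which this holds, had the most and the fewest kinds of motif. The *HEXIM1* window is chr17:45148225-45148474 on the plus strand and the *CDK12* window is chr17:39461236-39461485 on the plus strand. Capitals mark any of 5 motifs searched on both strands: the E-box CACGTG, the GC box GGGCGG, the CCAAT box CCAAT, the TATA box TATAAA and the core TGACG of the cyclic AMP response element (CRE).
HEXIM1: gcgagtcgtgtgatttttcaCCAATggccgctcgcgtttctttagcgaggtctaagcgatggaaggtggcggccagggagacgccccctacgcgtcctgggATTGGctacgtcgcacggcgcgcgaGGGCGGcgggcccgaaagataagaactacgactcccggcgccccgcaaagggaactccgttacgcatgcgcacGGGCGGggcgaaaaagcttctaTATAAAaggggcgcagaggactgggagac
CDK12: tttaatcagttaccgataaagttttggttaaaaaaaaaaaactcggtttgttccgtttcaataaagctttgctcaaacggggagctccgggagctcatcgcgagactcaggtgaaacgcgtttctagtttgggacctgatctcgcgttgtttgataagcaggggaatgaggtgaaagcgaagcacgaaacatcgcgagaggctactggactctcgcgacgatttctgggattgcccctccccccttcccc
The *HEXIM1* window held 2 GC boxes, 2 CCAAT boxes and 1 TATA box, and was the only one of the 9 with a TATA box, a motif present in 10.8% of 34943 RefSeq windows of this length. The *CDK12* window held 0 matches to the 5 motifs and had the lowest GC content of the 9, at 48.8%, against 86.8% for *BRD3* and a median of 58.0% over all windows.

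Shorter stretches of 30 bases are shown for the cyclin T genes and *CDK7*. *CCNT1* and *CDK7* were the only members with an E-box, and the CCAAT box was found in *CCNT1*, *CCNT2* and *HEXIM1* only. All 250 bases of the *CCNT1* and *CCNT2* windows lie in annotated exons of the gene itself, and 91 bases of the *CDK7* window do. The cyclin T stretches are therefore exon sequence in some annotated transcripts. The cyclin T genes varied alike between replicates and *HEXIM1* the other way, and a link of the motif to these patterns was not tested. The motif named in each line is in capitals, and each stretch is given 5′ to 3′ on the strand of its gene.
CCNT1 E-box, chr12:48716924-48716953, minus strand: ccgcccaacggtCACGTGacgcgcctgcgt
CDK7 E-box, chr5:69234769-69234798, plus strand: accgacaggcgtCACGTGacgggtggggaa
CCNT1 CCAAT box, reverse complement, chr12:48716877-48716906, minus strand: ttctggtcgcatATTGGctgttaactcggc
CCNT2 CCAAT box, chr2:134918590-134918619, plus strand: cttcggcgcctcCCAATgacaagcggcgcg
In both *CCNT1* and *CDK7* the E-box overlapped a CRE core. E-boxes were present in 6.32% of all windows, CCAAT boxes in 32.0%, GC boxes in 42.5% and the CRE core in 21.2%. These matches describe the letters only, and binding was not measured.

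*MED12* itself was reduced in each siMED12 library. Its level in CPM (counts per library size after TMM normalization) was 67.8, 77.7 and 72.6 in siCtrl and 23.9, 14.97 and 30.1 in siMED12, so that the groups did not overlap, and it fell by 1.66 on the log2 scale (SE 0.23, edgeR adjusted p = 0.0314). Leaving out replicate 1 or 2 of either group lost that call (adjusted p = 0.0818 to 0.186), with log2 fold changes between -1.73 and -1.45. Libraries held 16136699 to 17012788 counts. Mitochondrial genes took 4.43% to 10.0% of the counts in siCtrl and 4.79% to 10.1% in siMED12, lowest in replicate 1 and highest in replicate 3 of both groups. Prostate epithelial markers were present in all libraries (summed level 1326 to 1389 CPM in siCtrl and 1359 to 1372 CPM in siMED12), as were general epithelial markers (1749 to 2001 and 1564 to 1738 CPM). Leukocyte markers summed to at most 0.244 CPM and endothelial markers to at most 0.122 CPM in any library. Fibroblast markers summed to 25.3 to 38.7 CPM in siCtrl and 26.0 to 41.6 CPM in siMED12. The sum rose with the mitochondrial share, as *COL1A1* did (14.9, 17.3 and 27.4 CPM in siCtrl, 16.0, 17.6 and 26.7 CPM in siMED12). *LUM* was instead highest in replicate 2 of both groups (13.98 and 17.9 CPM), and *DCN* reached at most 0.819 CPM. The part of the fibroblast markers in any result was not tested.

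None of the 9 genes passed the test of siMED12 against siCtrl in the model with treatment alone. With edgeR's quasi-likelihood test 0 members were higher and 0 lower at an adjusted p below 0.05, where 0.151% of all genes tested were called higher and 0.413% lower. At an unadjusted p below 0.05 the count was also 0, where 1370 of the 17901 genes tested were higher and 1419 lower. DESeq2 and limma without the block called 0 members too. Over all genes DESeq2 called 319 higher and 482 lower, and limma 27 and 78. The same replicate number in both groups marked libraries that deviated alike, so a model with the replicate number as a block was fitted as well. It called 2 members higher (*CDK9* and *CDK13*) and 0 lower, where 17.1% of all genes were higher and 16.2% lower, so that 2 of 9 is near the background. With an added correction for GC content and length, *CDK9* was called higher and *BRD2* and *CCNT1* lower, beside 13.7% and 18.7% of all genes. The siCtrl and siMED12 CPM values overlapped in 9 of 9 members, while they did not overlap in 22.1% of all genes tested. Bulk RNA cannot tell fewer cells of a kind from less RNA per cell.

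**Figure D1:**
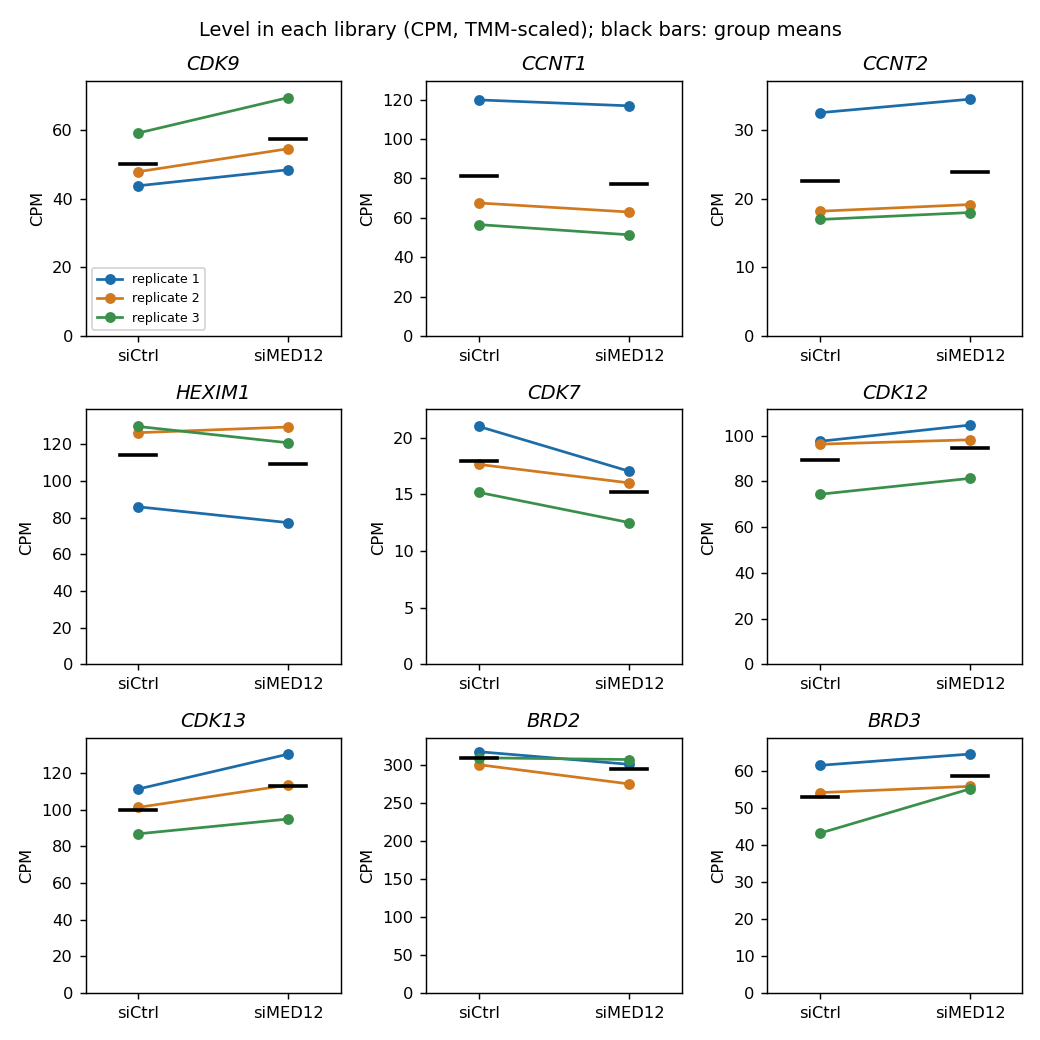
Level of each of the 9 genes in CPM (TMM-scaled, vertical axes from 0) in siCtrl and siMED12, with 1 point per library, lines joining libraries of the same replicate number and black bars at the group means. *CCNT1* and *CCNT2* are highest and *HEXIM1* lowest in replicate 1 of both groups, and *CDK9* is higher in siMED12 in 3 of 3 pairs.

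*CDK9*, the kinase of P-TEFb, was slightly higher after *MED12* knockdown in every pair. Its level was 43.85, 47.95 and 59.25 CPM in siCtrl replicates 1 to 3 and 48.5, 54.7 and 69.6 CPM in the siMED12 replicates. The groups overlapped, because replicate 3 was the highest and replicate 1 the lowest in each, but within pairs siMED12 exceeded siCtrl by 10.7%, 14.0% and 17.5%. The log2 fold change was 0.19 (SE 0.17, 95% interval -0.19 to 0.57, edgeR adjusted p = 0.648) without the block and 0.19 (SE 0.06, 95% interval 0.06 to 0.32, adjusted p = 0.0154) with it. Leaving out 1 library without the block moved the value from 0.19 to between 0.04 (siMED12 replicate 3) and 0.33 (siCtrl replicate 3). The blocked call was kept with the GC and length correction (0.21, adjusted p = 0.00538). It was lost with the DESeq2 Wald test (adjusted p = 0.11) and when replicate pair 1, 2 or 3 was left out (0.0629, 0.0915 and 0.123). *CDK9* (ENSG00000136807.14) lies at chr9:127785679-127790792 on the plus strand, and 175 bases of its exons also carry the microRNA genes *MIR2861* and *MIR3960*.

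*CCNT1*, which encodes cyclin T1, varied far more between replicates than with treatment. It was measured at 119.9, 67.6 and 56.6 CPM in siCtrl and at 116.9, 62.97 and 51.4 CPM in siMED12. Replicate 1 stood apart in both groups, at 1.77 times replicate 2 and 2.12 times replicate 3 in siCtrl, and at 1.86 and 2.27 times in siMED12. Within pairs siMED12 was lower by small margins, with changes of -2.48%, -6.79% and -9.15%. The log2 fold change was -0.08 (SE 0.35, 95% interval -0.88 to 0.73, edgeR adjusted p = 0.952) without the block, and this direction turned when siCtrl replicate 1, siMED12 replicate 2 or siMED12 replicate 3 was left out (0.29, 0.03 and 0.15). With the block it was -0.09 (SE 0.06, adjusted p = 0.236), and only the GC and length correction brought it past the threshold (-0.21, adjusted p = 0.00251). The gene (ENSG00000129315.11) spans chr12:48688458-48716998 on the minus strand. *DDN*, on the same chromosome at 278150 bases from *CCNT1*, was lower in siMED12 (log2 fold change -1.71, edgeR adjusted p = 0.0159).

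*CCNT2*, encoding cyclin T2, followed *CCNT1* across replicates at a lower level. The siCtrl values were 32.5, 18.15 and 16.95 CPM and the siMED12 values 34.45, 19.1 and 17.96 CPM. Replicate 1 was 1.79 and 1.92 times replicates 2 and 3 in siCtrl and 1.80 and 1.92 times in siMED12. The pairs differed by 6.06%, 5.32% and 6.01%, all higher in siMED12, and these were the most even within-pair changes of the 9 genes. Neither model called a change (log2 fold change 0.08, SE 0.32, edgeR adjusted p = 0.943 without the block, and SE 0.09, adjusted p = 0.524 with it). The sign turned with the GC and length correction (-0.03, adjusted p = 0.818) and when siCtrl replicate 2, siCtrl replicate 3 or siMED12 replicate 1 was left out of the model without the block (-0.05, -0.09 and -0.30). *CCNT2* (ENSG00000082258.13) spans chr2:134918235-134959342 on the plus strand and shares 150 exonic bases with the antisense gene *CCNT2-AS1*.

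*HEXIM1*, the P-TEFb inhibitor, showed the opposite replicate pattern. The siCtrl libraries had 85.85, 126.2 and 129.6 CPM and the siMED12 libraries 77.2, 129.3 and 120.7 CPM. Replicate 1 was the low library of both groups, at 0.68 and 0.66 times replicates 2 and 3 in siCtrl and at 0.60 and 0.64 times in siMED12. It was the only member without a common direction in the pairs, with changes of -10.05%, 2.44% and -6.83%. Neither model called it, with a log2 fold change of -0.06 (SE 0.22, 95% interval -0.56 to 0.44, edgeR adjusted p = 0.936) without the block and -0.07 (SE 0.05, adjusted p = 0.309) with it. Leaving pair 2 out of the blocked model gave a call (-0.15, adjusted p = 0.0400). Without the block, the sign turned when siCtrl replicate 2, siCtrl replicate 3 or siMED12 replicate 1 was left out (0.02, 0.04 and 0.12). *HEXIM1* (ENSG00000186834.4) is a single-exon gene at chr17:45148475-45152099 on the plus strand, and 520 of its bases are also covered by *HEXIM2-AS1* on the other strand. *HEXIM2-AS1* had 129, 62 and 103 counts in siCtrl and 154, 88 and 174 in siMED12, and was called higher with the block (log2 fold change 0.49, adjusted p = 0.0166), against the sign of the *HEXIM1* estimate. Whether strand was used in counting is not given in the sources used here, so reads of the shared bases cannot be assigned with certainty.

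*CDK7*, the TFIIH kinase, had the lowest CPM of the 9 genes and, with TMM scaling, the largest log2 fold change in size among them. With library size only, *CDK9* (0.23) and *CDK13* (0.22) exceeded it (-0.20). It was measured at 21.0, 17.65 and 15.2 CPM in siCtrl and at 17.05, 16.0 and 12.5 CPM in siMED12. Each siMED12 library was below its siCtrl partner, with changes of -18.8%, -9.22% and -17.5%, although the groups overlapped. The log2 fold change was -0.24 (SE 0.18, 95% interval -0.66 to 0.18, edgeR adjusted p = 0.605) without the block. With the block it was -0.24 (SE 0.10, 95% interval -0.45 to -0.03, adjusted p = 0.0761), which did not pass. The direction was the same in 22 of 22 fits, this and the alternatives, and 0 of them called it. The libraries held 200 to 353 *CDK7* counts, the fewest of any member. Of the 50-base stretches of its transcripts 6.26% are found in the pseudogene *CDK7P1*, which had 5 to 17 counts. *CDK7* (ENSG00000134058.12) lies at chr5:69234795-69277430 on the plus strand.

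*CDK13* and *CDK12*, the cyclin K-dependent kinases, were both higher in siMED12 in 3 of 3 pairs, and of these *CDK13* alone passed the test with the block. *CDK13* was measured at 111.3, 101.3 and 86.9 CPM in siCtrl and at 130.4, 113.5 and 94.96 CPM in siMED12. Replicate 1 was highest and replicate 3 lowest in both groups, so that the ranges overlapped, while the pairs differed by 17.2%, 12.1% and 9.32%. Its log2 fold change was 0.18 (SE 0.14, edgeR adjusted p = 0.612) without the block and 0.18 (SE 0.05, 95% interval 0.07 to 0.28, adjusted p = 0.00517) with it. The call was lost when pair 1 was left out (0.13, adjusted p = 0.149) and with the GC and length correction, which reduced the log2 fold change to 0.03 (adjusted p = 0.678). *CDK13* (ENSG00000065883.18) lies at chr7:39950121-40099580 on the plus strand.

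*CDK12* was measured at 97.5, 96.3 and 74.4 CPM in siCtrl and at 104.6, 98.2 and 81.3 CPM in siMED12. Replicate 3 was the low library of both groups, and the pairs differed by 7.28%, 1.97% and 9.34%. Its log2 fold change was 0.08 (SE 0.14, 95% interval -0.24 to 0.40, edgeR adjusted p = 0.844) without the block and 0.09 (SE 0.05, adjusted p = 0.219) with it. It turned to -0.06 (adjusted p = 0.396) with the GC and length correction. Leaving out siCtrl replicate 3 or siMED12 replicate 1 from the model without the block also turned it (-0.03 and -0.01). *CDK12* (ENSG00000167258.15) lies at chr17:39461486-39567559 on the plus strand.

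*BRD2*, the BET gene with the highest counts, was the steadiest member. Its siCtrl levels were 317.6, 300.5 and 309.6 CPM and its siMED12 levels 301.0, 275.2 and 307.3 CPM, with means of 309.2 ± 8.56 and 294.5 ± 17.01 (SD, n = 3 each). All 3 pairs were lower in siMED12, with changes of -5.22%, -8.40% and -0.73%, and the groups overlapped. The log2 fold change was -0.07 (SE 0.08, 95% interval -0.26 to 0.12, edgeR adjusted p = 0.762) without the block and -0.07 (SE 0.04, adjusted p = 0.178) with it. The GC and length correction gave -0.10 with an adjusted p of 0.0471, just below the threshold. *BRD2* (ENSG00000204256.14) lies at chr6:32968594-32981505 on the plus strand, and 632 of its exonic bases are covered by genes on the other strand, among them *HLA-DMA*, which had at most 19 counts in a library.

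*BRD3*, the second BET gene, was measured at 61.5, 54.15 and 43.2 CPM in siCtrl and at 64.6, 55.8 and 55.15 CPM in siMED12. Replicate 3 carried most of the difference, with a change of 27.8% against 4.96% and 3.12% in the other pairs. For *BRD3* the log2 fold change was 0.14 (SE 0.14, 95% interval -0.19 to 0.48, edgeR adjusted p = 0.711) without the block and 0.15 (SE 0.07, adjusted p = 0.0714) with it. Leaving pair 3 out of the blocked model reduced it to 0.06 (adjusted p = 0.645). *BRD3* (ENSG00000169925.17) lies at chr9:134030305-134068535 on the minus strand and shares 1283 exonic bases with *BRD3OS* on the other strand. *BRD3OS* had 376, 400 and 296 counts in siCtrl and 453, 551 and 370 in siMED12, and was called higher with the block (log2 fold change 0.32, adjusted p = 0.00264). Its part in the *BRD3* values was not tested.

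**Figure D2:**
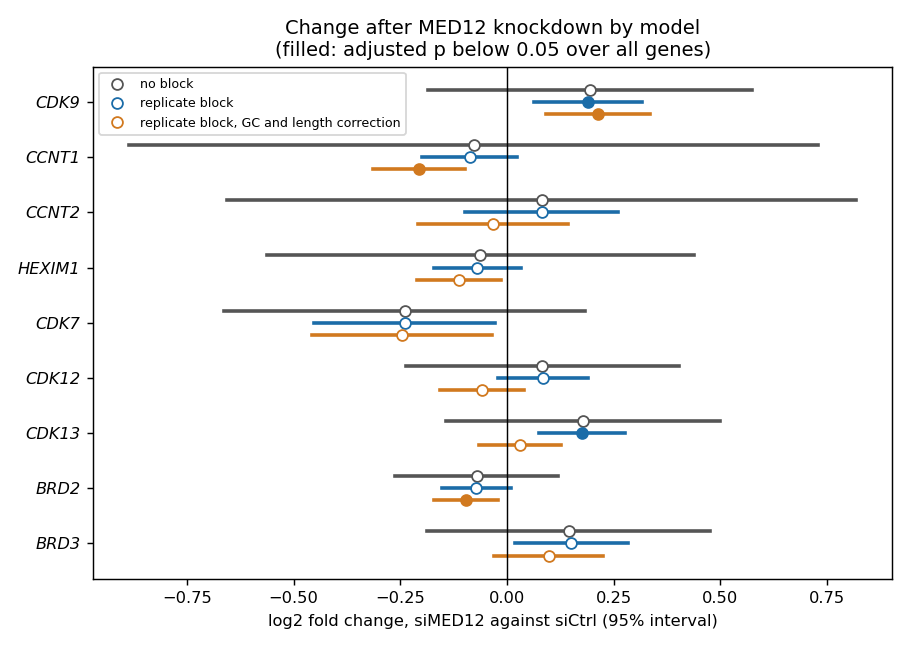
Log2 fold change of each gene, siMED12 against siCtrl, with 95% intervals on the horizontal axis, from the model with treatment alone, with the replicate block, and with the block and a GC and length correction; filled points have an adjusted p below 0.05 over all genes. *CDK9* is filled in both blocked models, *CDK13* in 1 of them, and *BRD2* and *CCNT1* only after the correction.

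Replicate number accounted for more of the variation between libraries than treatment in 9 of 9 genes. The sum of squares of log2 CPM over the 6 libraries was divided into shares for replicate number, treatment and a rest, as a description without a test. Replicate number has more levels than treatment, so its share tends to be larger even without an effect. The medians over all genes had the same order (56.8% against 20.5%). Replicate number took 99.1% of it in *CCNT2*, 98.9% in *CCNT1* and 96.8% in *HEXIM1*, larger shares than in 99.2%, 98.98% and 96.0% of all genes tested. The share was 92.3% in *CDK12*, 81.1% in *CDK9*, 77.7% in *CDK13*, 69.5% in *CDK7*, 67.5% in *BRD3* and 56.1% in *BRD2*, beside a median of 56.8% over all genes. Treatment took 30.5% in *BRD2*, 28.0% in *CDK7*, 21.1% in *CDK13*, 18.3% in *CDK9* and 18.0% in *BRD3*, against a median of 20.5%. It took 6.18% in *CDK12*, 1.45% in *HEXIM1*, 0.917% in *CCNT2* and 0.896% in *CCNT1*. The mitochondrial share of the libraries moved with replicate number too, and its part in these differences was not tested.

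**Figure D3:**
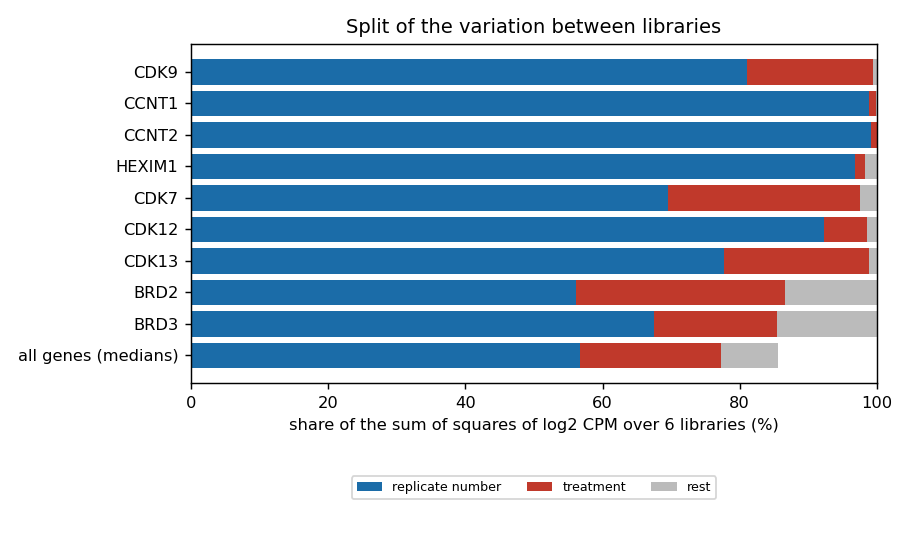
Share of the sum of squares of log2 CPM over the 6 libraries (horizontal axis, percent) taken by replicate number, treatment and the rest, for each gene; the lowest bar shows the median of each share over all genes tested, and medians need not sum to 100. The replicate share is near the full width in *CCNT1*, *CCNT2* and *HEXIM1* and smallest in *BRD2*.

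Levels of different genes were compared per length, in TPM, which divides counts by the length of all exons of each gene and scales every library to the same total. In siCtrl the order was *BRD2* with 98.0 ± 11.7 TPM, *HEXIM1* with 88.3 ± 12.1, *CDK9* with 47.3 ± 3.42, *CCNT1* with 32.3 ± 16.7, *BRD3* with 22.1 ± 5.95, *CDK7* with 21.4 ± 5.61, *CDK12* with 19.8 ± 4.49, *CDK13* with 11.6 ± 2.53 and *CCNT2* with 7.24 ± 3.52 TPM (mean ± SD, n = 3). The inhibitor *HEXIM1* was thus above the kinase *CDK9* in each library, and their ranges did not overlap. *CDK12* and *CDK13* were the only other neighbours in this order whose siCtrl ranges were apart, and the remaining neighbours overlapped. With the longest coding transcript as the length, 4 of 9 genes kept their rank (*BRD2*, *HEXIM1*, *CDK9* and *CCNT2*), the ranges of *CDK12* (23.1 ± 4.83 TPM) and *CDK13* (22.4 ± 4.48 TPM) overlapped, and *HEXIM1* stayed above *CDK9* (66.2 ± 9.90 against 42.8 ± 3.86 TPM).

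In siMED12 the levels per length were 98.4 ± 10.1 TPM for *BRD2*, 89.5 ± 19.3 for *HEXIM1*, 57.0 ± 4.75 for *CDK9*, 32.3 ± 17.6 for *CCNT1*, 25.7 ± 4.74 for *BRD3*, 22.1 ± 4.91 for *CDK12*, 19.1 ± 4.74 for *CDK7*, 13.9 ± 3.51 for *CDK13* and 8.08 ± 3.86 for *CCNT2* (mean ± SD, n = 3). On the TPM scale the siMED12 mean was higher in 8 of 9 genes, against 5 of 9 by the fitted log2 fold change on TMM-scaled counts, and the median of all tested genes shifted by 0.10 log2 units on the TPM scale. *CDK9* was the only member whose groups did not overlap in TPM, at 45.98, 44.7 and 51.15 in siCtrl and 53.15, 55.5 and 62.3 in siMED12, which held for 16.6% of all genes tested.

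**Figure D4:**
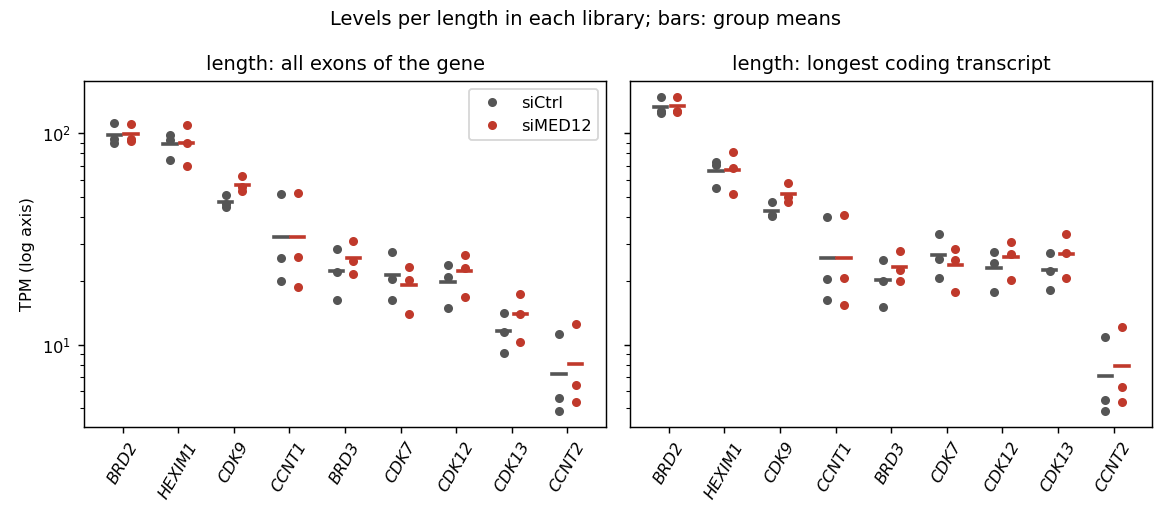
TPM of each gene in every library (log axis), with siCtrl and siMED12 side by side and bars at the group means, computed with the length of all exons (left) or of the longest coding transcript (right). *BRD2* and *HEXIM1* lead and *CCNT2* is lowest with either length, while the order of the genes between *CDK9* and *CCNT2* depends on the length used.

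Ratios between partners or paralogs within a library do not depend on the scaling of libraries, and 4 were compared. *HEXIM1* to *CDK9* counts stood at 1.96, 2.63 and 2.19 in siCtrl and at 1.59, 2.36 and 1.73 in siMED12, lower in 3 of 3 pairs, with a difference of -0.26 on the log2 scale. *CCNT1* to *CCNT2* counts stood at 3.69, 3.72 and 3.34 in siCtrl and at 3.39, 3.29 and 2.86 in siMED12, lower in 3 of 3 pairs (log2 difference -0.17). *CCNT1* and *CCNT2* differed by nearly the same factor between replicates, so their ratio varied less between replicates than either gene. *BRD2* to *BRD3* counts stood at 5.16, 5.55 and 7.17 in siCtrl and at 4.66, 4.93 and 5.57 in siMED12, again lower in 3 of 3 pairs (log2 difference -0.23). *CDK12* to *CDK13* counts stood at 0.877, 0.951 and 0.856 in siCtrl and at 0.802, 0.865 and 0.856 in siMED12 (log2 difference -0.09). Two-sided exact permutation tests of the 4 differences gave p = 0.2 for the cyclins and p = 0.3 for the others (each 0.3 after Benjamini-Hochberg adjustment), and 3 against 3 libraries cannot go below 0.10. The paired exact sign-flip test, which cannot go below 0.25 with 3 pairs, gave 0.25 for the 3 ratios that were lower in every pair and 0.5 for *CDK12* to *CDK13*.

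The other genes of the same machinery were taken from 7 lists of 56 genes, of which 54 were tested. Without the block edgeR called 0 higher and 0 lower. At an unadjusted p below 0.05 there were 2 higher and 3 lower, beside 1370 and 1419 of all 17901 genes tested. DESeq2 called 1 higher and 1 lower, beside 319 and 482 of all genes. With the block 8 of the listed genes were higher and 8 lower (14.8% each), near the 17.1% and 16.2% of all genes. The median log2 fold change without the block was -0.01 over the 54 genes and 0.08 over the 9 members, beside 0.02 over all genes tested. The adjusted p-values of listed genes given next are from edgeR with the block. Without it 0 of these genes passed in edgeR with the expression filter, while *CTDSP2* passed with DESeq2 (adjusted p = 0.00551) and in edgeR with no filter (0.0255), and *NELFE* passed with DESeq2 (0.0355).

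In the list of 7SK particle, BET and cyclin K partners 0 of 5 tested genes passed. Cyclin K (*CCNK*), the partner of CDK12 and CDK13, was measured at 66.6 ± 9.93 CPM in siCtrl and 60.7 ± 8.06 CPM in siMED12 (SD, n = 3). *LARP7*, a 7SK-binding protein, was at 73.4 ± 4.77 and 73.8 ± 2.73 CPM. Among 8 tested TFIIH genes 1 was lower, *CCNH*, the cyclin of CDK7 (log2 fold change -0.26, adjusted p = 0.00217). It fell from 50.45, 50.35 and 44.9 CPM in siCtrl to 44.4, 39.1 and 37.9 CPM in siMED12, and the groups did not overlap. *CDK7* and *CCNH* therefore had fitted changes of the same sign and similar size, of which *CCNH* alone passed.

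Of 9 other transcription-linked CDKs and cyclins, *CCNL1* and *CCNL2*, cyclins of kinases linked to splicing, were higher (log2 fold changes 0.24 and 0.18, adjusted p = 0.000826 and 0.000729). Like the cyclin T genes they varied with replicate number: *CCNL2* was at 173.1, 186.9 and 369.6 CPM in siCtrl and at 198.0, 210.7 and 413.3 CPM in siMED12, with replicate 3 high in both groups. The *CCNL1* call was lost when pair 2 was left out (0.13, adjusted p = 0.107). In the super elongation complex, which carries P-TEFb to polymerase, 2 of 9 genes were higher and 1 lower. The scaffolds *AFF1* and *AFF4* rose (log2 fold changes 0.37 and 0.31, adjusted p = 6.55e-07 and 1.09e-06), *AFF1* from 91.7, 102.7 and 79.85 CPM to 115.8, 120.9 and 116.7 CPM. The GC and length correction reduced both, to 0.22 and 0.17, and kept the calls (adjusted p = 0.000633 and 0.00213). Without the block, *AFF4* went from 0.31 to 0.15 without siCtrl replicate 3 and to 0.17 without siMED12 replicate 1. *ELL2*, an elongation factor of the same complex, fell from a mean of 355.4 ± 69.3 to 301.1 ± 53.5 CPM (log2 fold change -0.24, adjusted p = 1.01e-05).

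Among 6 pausing factors 1 was higher and 2 lower. *SUPT5H*, a subunit of DSIF, was higher (log2 fold change 0.13, adjusted p = 0.0136), while *NELFE* and *NELFB*, subunits of the negative elongation factor, were lower (-0.35 and -0.16, adjusted p = 5.95e-06 and 0.0072). *NELFE* was at 76.5, 81.85 and 76.5 CPM in siCtrl and at 64.1, 61.1 and 59.0 CPM in siMED12, with no overlap. Among 11 elongation factors the PAF complex-related genes *RTF1* and *PAF1* were higher (log2 fold changes 0.17 and 0.16, adjusted p = 0.00323 and 0.0154). Both subunits of the histone chaperone FACT were lower, *SSRP1* and *SUPT16H* (log2 fold changes -0.29 and -0.16, adjusted p = 1.17e-07 and 0.0015). Of 6 phosphatase genes of the C-terminal domain, *CTDSP2* was higher and *CTDP1* and *SSU72* lower (log2 fold changes 0.50, -0.20 and -0.15, adjusted p = 1.23e-10, 0.0362 and 0.0129). *CTDSP2* had the largest change of the listed genes that passed, from 101.6 ± 9.70 to 143.1 ± 7.72 CPM (SD, n = 3), and its adjusted p without the block was 0.075. With the GC and length correction *NELFB*, *RTF1* and *CTDP1* no longer passed (adjusted p = 0.058, 0.103 and 0.067). *SUPT16H* went to -0.25 and kept its call. With a pair left out, *SUPT5H* and *CTDP1* passed in none of 3 fits (adjusted p = 0.0718 to 0.123 and 0.0683 to 0.111). *NELFB* and *RTF1* did not pass without pair 1 (0.0906 and 0.0538), *PAF1* without pair 2 (0.467, with its log2 fold change at 0.06) or *SSU72* without pair 3 (0.0596).

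**Figure D5:**
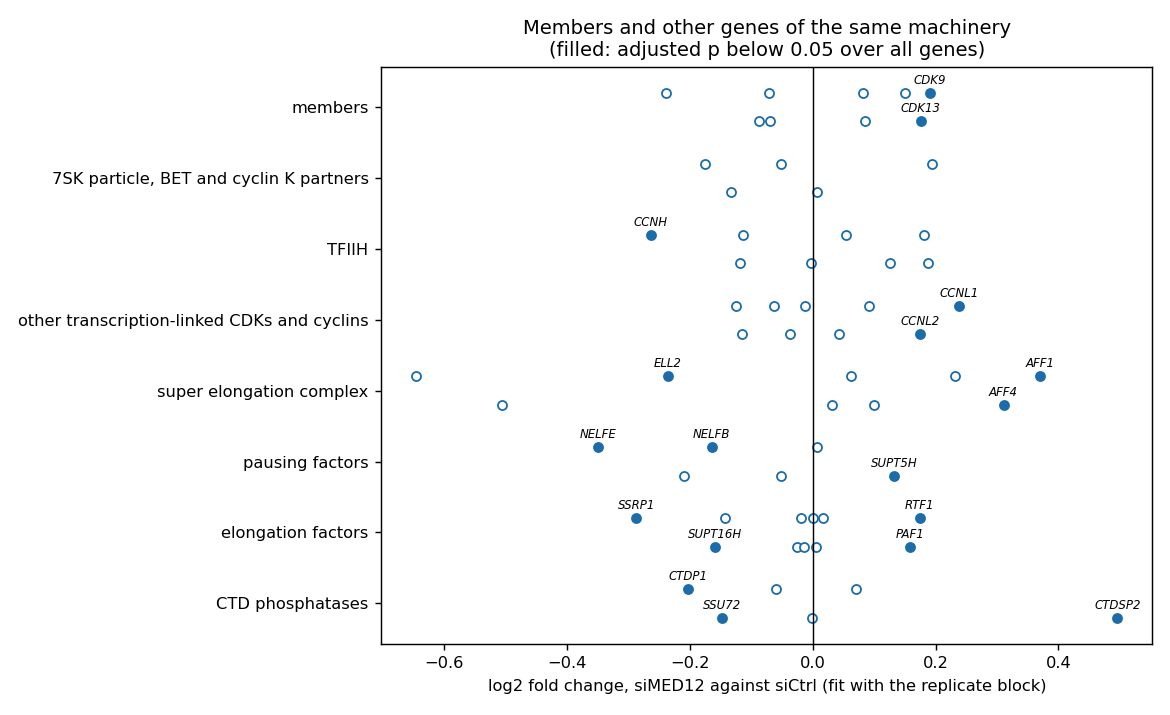
Log2 fold change, siMED12 against siCtrl, from the model with the replicate block, for the 9 members and for the 54 tested genes of 7 lists of the same machinery; filled points have an adjusted p below 0.05 over all genes. The filled member points are *CDK9* and *CDK13*, and 8 listed genes are filled on either side of 0.

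The genes whose pattern over the 6 libraries was most like that of a member were sought among 10657 genes with a mean of at least 10 CPM, by Pearson's r of log2 CPM. These values describe 6 libraries that share replicate numbers, and no test was made. Genes picked this way share the pattern of the member, in replicates and in pairs, because of how they were picked. *HEXIM1* was most like *JOSD1* (r = 0.998), *CDK5R1* (r = 0.995) and *RPL7AP70* (r = 0.993), and 44 genes reached r of 0.95 or more. *CDK5R1* had 10.9 and 9.15 CPM in replicate 1 of siCtrl and siMED12 and 23.4 to 26.0 CPM in the other libraries, the same low first replicate as *HEXIM1*. *CDK7* was most like *SDAD1* (r = 0.998), *MEPCE* (r = 0.996) and *POLA1* (r = 0.991), with 93 genes at 0.95 or more. *MEPCE*, which caps the 7SK RNA, had 32.9, 29.5 and 25.5 CPM in the controls and 28.0, 27.3 and 22.5 CPM after knockdown, lower in 3 of 3 pairs as *CDK7* was.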

How the data were processed

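The data were 6 RNA-seq libraries of 22Rv1 cells (3 siCtrl, 3 siMED12). Per the study's methods, strand-specific libraries were aligned and counted by the authors in R with Rsubread against GRCh38.p13, and the deposited values are raw read counts per gene. The Rsubread version and the handling of strand and of reads matching several places are not given in the sources used here. The deposited log2 CPM table was not used. Counts were filtered by expression, scaled by TMM and tested with edgeR version 4.0.16 (R version 4.3.3) by the two-sided quasi-likelihood test, with Benjamini-Hochberg adjustment over 17901 genes and a threshold of 0.05. The design held treatment only, as the methods state no block; a legend in the study calls a heatmap of these cells corrected for an unnamed batch, so this model need not be the authors'. Deviations from group means correlated at 0.373 to 0.643 between libraries of the same replicate number and at -0.46 to -0.0233 otherwise, so the numbers were taken to pair the libraries. Deviations within a group cancel out, so the negative values follow in part from the positive ones and are not separate evidence. The GC and length correction used a loess trend (span 0.5) per library. DESeq2 version 1.42.0 and limma version 3.58.1 were alternatives. The procedure was tested on simulated data. Annotation was Gencode on GRCh38. Members had 200 to 5338 counts per library in 16136699 to 17012788 in all. Named genes were the 9 members, *MED12* and the 3 genes most like *HEXIM1* and *CDK7*. From each list up to 2 genes per direction were named, with the largest fold change among those called with the block. *DDN*, *LARP7*, *CCNK*, *MNAT1* and overlapping genes were added once values had been seen. The members and lists were chosen with earlier results of these data known. Some items are not reported here.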

Additional observations from a re-analysis of the deposited data

How the results depend on the processing

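Without the replicate block, 0 members were called higher or lower in any alternative scaling, test, filter or threshold, or with any library left out. The alternative threshold, 0.01, was stricter and could not add a call. Leaving out replicate 1 or 2 of either group gave 0 calls over all genes, so those fits could call no member. Without siCtrl replicate 3 the calls over all genes were 5 higher and 37 lower, and without siMED12 replicate 3 they were 8 and 29. With the block the number of members called higher was 2 (calls over all genes in each fit are given below). It was 4 when scaling by library size alone (*BRD3* and *CDK12* added to *CDK9* and *CDK13*), 2 under DESeq2's size factors, 1 in its Wald test, 2 by limma-trend, 1 with the GC and length correction, and 0 to 1 with a pair left out. The number called lower with the block was 0, except 2 with the GC and length correction and 0 to 1 with a pair left out. Among the other listed genes, 0 were called without the block except 1 higher (*CTDSP2*) and 1 lower (*NELFE*) by DESeq2's Wald test and 1 higher (*CTDSP2*) when no filter was set. With the replicate block 8 were higher and 8 lower, 10 and 6 when scaling by library size alone, 8 and 8 under DESeq2's size factors, 6 and 7 in its Wald test, 8 and 8 by limma-trend, 8 and 10 with the GC and length correction, and 5 to 8 and 6 to 8 with a pair left out. Over all genes the block raised the calls from 27 higher and 74 lower to 3058 and 2908. Blocked, they were 3807 and 2413 when scaling by library size alone and 2960 and 3069 under DESeq2's size factors. The blocked Wald test called 1780 and 2063 over all genes, and blocked limma-trend 3077 and 2907. The GC and length correction gave 2459 and 3338, and leaving a pair out 2070 to 2375 and 2578 to 2654. Unblocked, DESeq2 called 319 and 482, scaling by library size alone 31 and 49, and no filter 186 and 290. The cause of these differences was not tested.

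With the GC and length correction the log2 fold changes of *CDK12* and *CCNT2* turned to -0.0580 and -0.0330. With 1 library left out and no block, log2 fold changes ran from -0.0348 to 0.18 in *CDK12*, -0.52 to 0.29 in *CCNT1*, -0.30 to 0.42 in *CCNT2*, -0.25 to 0.12 in *HEXIM1*, -0.0598 to 0.57 in *CCNL1* and -0.25 to 0.60 in *CCNL2*. *BRD2*, *BRD3*, *CDK7*, *CDK9* and *CDK13* kept their sign in these and 16 other fits, but their size moved, with 1 library left out, from -0.10 to -0.05, 0.01 to 0.25, -0.35 to -0.12, 0.04 to 0.33 and 0.05 to 0.29. With the length of the longest coding transcript 4 of 9 members kept their rank by level. The 4 ratios kept their side of the threshold in each alternative, in a design that cannot pass it. Without the block the 95% intervals of *CCNT1* and *CCNT2* ran from -0.88 to 0.73 and from -0.66 to 0.82 on the log2 scale.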
